A study of Mus musculus with 4 samples.

Results

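HSC-only regions at gene ends are stretches of the mouse genome with a Sub1 CUT&Tag peak in both libraries of hematopoietic stem cells (HSCs), no peak in either library of leukemia stem cells (LSCs), and a position no more than 1 kb from the start or the end that RefSeq gives for a protein-coding gene. Peaks of the 4 deposited lists were merged wherever they overlapped by at least 1 bp, which gave 285131 union regions on the main chromosomes. Of these, 25789 lay at a gene end, and 2081 of those were HSC-only, or 8.07% of the gene-end regions. The reverse pattern, called LSC-only here, held for 197 gene-end regions, or 0.764%. Presence of a peak chose the regions, so their number and the strength of their HSC peaks are a description and carry no test. With the 33885 strongest peaks of each library the number was 213. It was 9830 without HSC 1, when a peak in HSC 2 sufficed, and 5418 without HSC 2.

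The LSC libraries came from bone marrow of MLL-AF9-driven mice, with cells sorted for c-Kit, CD34 and CD16/32 on the surface and for the absence of Sca-1 and lineage markers. The HSC libraries came from cells with CD150 and without CD48, taken from the LSK population, which carries Sca-1 and c-Kit and lacks lineage markers. All donors carried the Nup214fl/+ genotype, with 1 floxed allele of this nuclear pore gene. All 4 libraries, LSC ones included, are labelled as hematopoietic stem cells in the cell type field, so the groups follow the titles and the sorting text. There were 2 libraries per group, and the labels do not say whether they came from separate mice or give ages, so any spread between them may be technical. The LSC lists held 41097 and 34185 peaks and the HSC lists 115881 and 235680. The background coverage that the caller's values imply, used here in place of read totals, was 4.54 and 4.5 reads per position in LSC 1 and LSC 2 and 3.07 and 7.47 in HSC 1 and HSC 2. HSC 1 thus had a lower background than either LSC library and a longer list.

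Sub1, also called PC4, is a DNA-binding cofactor that acts with the transcription machinery and prefers single-stranded DNA in vitro. RNA polymerase II assembles at the start of a gene, and near the 3' end the transcript is cleaved and transcription stops. Mammalian promoters fall into a CpG-rich class, typical of genes used in most cells, and a CpG-poor class, typical of genes used in particular cell types.

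Promoters whose start lay inside leading HSC-only regions are shown for their base composition, which is set against that of shared regions. They are RefSeq sequences of GRCm38.p6 (mm10), 5' to 3' on the gene's strand, from 250 bases before to 50 after the start, with each CG pair in capitals. They belong to 5 of the first 20 regions, ordered by the weaker of the 2 HSC ranks. The annotated start of Nrbp1 also lay in its region, but its promoter is not shown. Hjurp, shown last, is the first promoter in the regions shared by all 4 libraries, ordered by their weakest rank. All 300 bases of each lie inside the region.
Lpcat2: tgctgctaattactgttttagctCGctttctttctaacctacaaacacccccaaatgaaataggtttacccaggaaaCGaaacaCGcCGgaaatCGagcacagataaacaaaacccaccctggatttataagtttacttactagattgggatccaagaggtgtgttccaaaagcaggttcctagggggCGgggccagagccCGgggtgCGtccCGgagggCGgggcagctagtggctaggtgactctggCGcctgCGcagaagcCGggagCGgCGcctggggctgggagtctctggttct
Gm31160: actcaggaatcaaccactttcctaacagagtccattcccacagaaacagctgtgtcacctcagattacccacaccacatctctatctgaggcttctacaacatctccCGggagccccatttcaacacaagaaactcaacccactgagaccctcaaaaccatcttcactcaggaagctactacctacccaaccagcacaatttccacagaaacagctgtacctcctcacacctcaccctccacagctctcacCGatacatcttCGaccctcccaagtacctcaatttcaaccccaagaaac
Ffar1: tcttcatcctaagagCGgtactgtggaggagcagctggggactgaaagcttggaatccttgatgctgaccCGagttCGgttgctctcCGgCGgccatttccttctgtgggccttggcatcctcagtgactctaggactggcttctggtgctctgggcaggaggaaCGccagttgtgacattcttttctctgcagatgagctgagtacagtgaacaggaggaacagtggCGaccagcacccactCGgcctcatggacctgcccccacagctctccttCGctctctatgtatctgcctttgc
Sema4a: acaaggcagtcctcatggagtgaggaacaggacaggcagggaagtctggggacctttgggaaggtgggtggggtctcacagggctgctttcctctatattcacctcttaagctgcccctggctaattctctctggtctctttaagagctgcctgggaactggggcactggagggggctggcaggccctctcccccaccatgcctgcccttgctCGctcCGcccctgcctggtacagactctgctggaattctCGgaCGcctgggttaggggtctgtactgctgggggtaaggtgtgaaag
Ifi213: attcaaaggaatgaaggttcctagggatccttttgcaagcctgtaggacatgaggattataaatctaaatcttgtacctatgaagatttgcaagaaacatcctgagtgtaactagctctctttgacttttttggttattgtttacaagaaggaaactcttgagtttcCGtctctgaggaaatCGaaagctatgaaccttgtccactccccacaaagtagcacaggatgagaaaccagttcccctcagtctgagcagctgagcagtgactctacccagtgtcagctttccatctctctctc
Hjurp: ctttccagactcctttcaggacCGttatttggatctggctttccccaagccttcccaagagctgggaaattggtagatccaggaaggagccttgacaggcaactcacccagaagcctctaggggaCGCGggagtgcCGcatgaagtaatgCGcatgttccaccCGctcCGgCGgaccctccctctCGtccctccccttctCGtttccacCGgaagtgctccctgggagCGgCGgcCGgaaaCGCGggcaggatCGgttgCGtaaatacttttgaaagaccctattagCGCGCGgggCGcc
The Lpcat2 promoter (chr8:92855083-92855382, plus strand) held 15 CG pairs. The promoters of the predicted gene Gm31160 (chr5:137179115-137179414, minus strand), of Ffar1 (chr7:30861421-30861720, minus strand), of Sema4a (chr3:88461133-88461432, minus strand) and of Ifi213 (chr1:173599223-173599522, minus strand) held 3, 9, 4 and 2. The shared promoter of Hjurp (chr1:88277530-88277829, minus strand), a gene for a centromere chaperone, held 22. Hjurp also had an HSC-only region, 53 bp from its 3' end.

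The leading HSC-only regions lay at genes of several unrelated functions. The strongest (chr5:36630243-36630794) stood 80 bp inside the 3' end of Gm32584, a predicted gene on the minus strand of chromosome 5 from 36630163 to 36661658. Its strongest peak had a fold of 36.1 in HSC 1 and 54.2 in HSC 2, and the nearest LSC peak was 34554 bp away. The fold is the authors' caller's ratio of pileup to background, given here as a description within a library. Regions were ordered by -log10 p. The second region ran from 92853139 to 92856851 on chromosome 8 across the gap between Mmp2, which encodes a gelatinase that cuts extracellular matrix, and Lpcat2, which encodes an acyltransferase that remodels phosphatidylcholine. Its fold was 25.1 in HSC 1 and 25.9 in HSC 2. No LSC peak lay within 488636 bp of it. These were the 2 HSC-only regions with a fold of at least 20 in both HSC libraries.

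Also among the first 7 regions were those near Mat2b, encoding a regulatory subunit of methionine adenosyltransferase (folds 15.5 in HSC 1 and 28.0 in HSC 2), and Marcks, encoding a membrane-bound actin regulator (15.2 and 29.5 in the same order). Both were flanked by LSC peaks, at gaps of 309 and 322 bp. Ltf, encoding lactoferrin of neutrophil secondary granules, had a region of 3870 bp that reached its 3' end, with folds of 15 and 24.4 in HSC 1 and HSC 2. Prom1, encoding the surface protein CD133, had a region 41 bp from its start (chr5:44100146-44102006) with folds of 22.8 and 18.9, and the nearest LSC peak lay 26763 bp away. Ffar1, encoding a receptor for free fatty acids, had a region that covered the whole gene (14.5 and 22.0), 11905 bp from an LSC peak. The start of Ifi213, an interferon-inducible gene of the Ifi200 cluster, lay in a region with folds of 13.3 and 28.3. Sema4a, encoding a semaphorin, had the widest member region of all, 5345 bp with 4 HSC 1 and 3 HSC 2 peaks. The other leading regions lay at Gm33099, Med8, Lilr4b, the pair Gm31160 and Gm40349, Lefty1, Nrbp1, Timp2, Brk1, Cdhr4, Lypla1 and Rbm14. All 20 leading regions ranked in the strongest 13.2% of the HSC 1 list and 6.4% of the HSC 2 list.

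**Figure D1:**
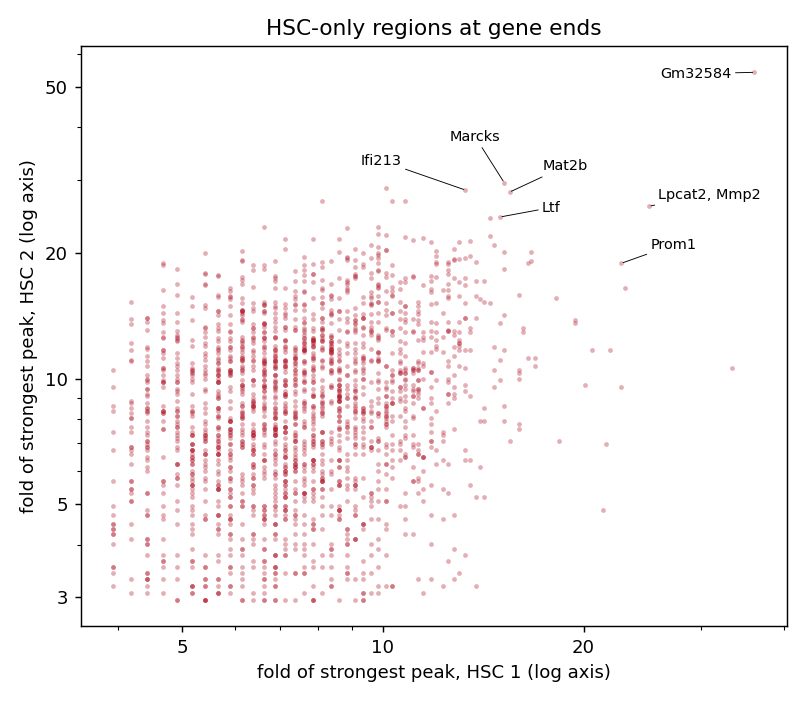
Each point is 1 of the 2081 HSC-only regions at gene ends, placed by the fold of its strongest peak in HSC 1 (x) and in HSC 2 (y), both on log axes. The quartiles are 6.14 and 9.33 in HSC 1 and 6.14 and 11.9 in HSC 2, and Gm32584 stands apart at 36.1 and 54.2.

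Apart from these leaders, the HSC peaks in HSC-only regions were weak and narrow. The median fold was 7.37 in HSC 1 (range 3.93 to 36.1) and 8.74 in HSC 2 (range 2.95 to 54.2), against 27.8 and 34.5 in the 9499 gene-end regions with a peak in all 4 libraries, called shared regions here. The median summit pileup, worked out from fold and background, was 29.0 reads in HSC 1 and 73.0 in HSC 2, against 112 and 291 in shared regions. In LSC 1 and LSC 2 the same shared regions had higher median pileups, of 597 and 384 reads, at median folds of 108 and 70.0. The libraries thus differed in more than background, and the part of this in the missing LSC peaks was not tested. The median width of the strongest HSC peak was 408 and 643 bp in HSC-only regions and 1845 and 2216 bp in shared regions, in HSC 1 and HSC 2. Of the members, 215 (10.3%) had a fold of at least 10 in both HSC libraries, and 1844 (88.6%) consisted of 1 peak from each. Across members, folds in HSC 1 and HSC 2 had a Spearman rho of 0.24 (n = 2081), and across shared regions 0.82 (n = 9499). These points are regions of the same 2 libraries, so no p is given. The range of fold is also narrower among members.

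The share of HSC-only regions grew as HSC peaks became weaker. Of the 12700 gene-end regions with a peak in both HSC libraries, 16.4% had no LSC peak. The regions were divided into 10 bins of 1270 by the weaker of their 2 HSC ranks. In the 5 strongest bins together, 2 regions were HSC-only, those of Gm32584 and of Lpcat2 and Mmp2. The share was 2.83% in the next bin, then 13.6%, 33.3% and 50.3%, and 63.6% in the weakest. The weakest members were at Tex12, a gene of the meiotic synaptonemal complex (folds 4.91 in HSC 1 and 2.95 in HSC 2), and at St14, which encodes the protease matriptase (7.37 and 2.95). The lowest fold called was 3.61 and 3.63 in the LSC lists and 3.93 and 2.95 in the HSC lists, in order of library number. HSC-only regions away from gene ends, 20132 in number, were alike in strength, with median folds of 7.12 and 8.38. HSC-only regions were 7.79% of all union regions, close to their share at gene ends.

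**Figure D2:**
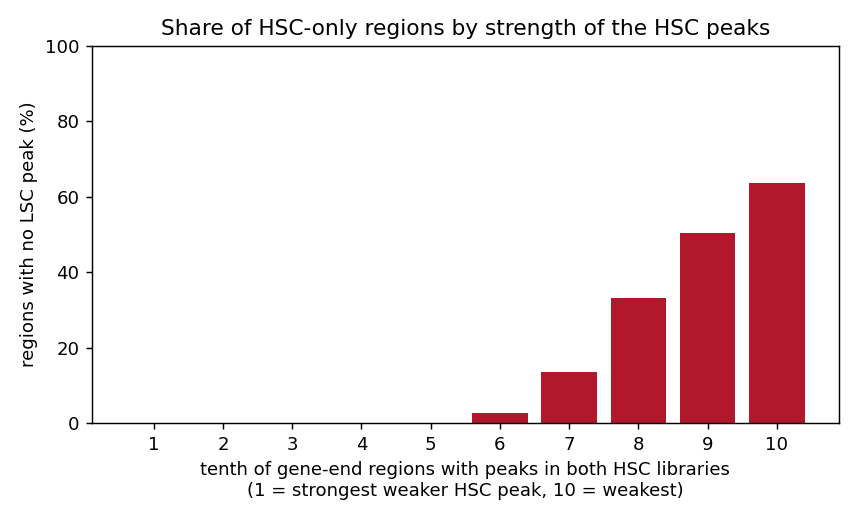
Bars give the percentage of gene-end regions with no LSC peak, for the 12700 regions with peaks in both HSC libraries, in 10 bins of 1270 ordered by the weaker HSC peak. The share is near 0 in the 5 strongest bins and 63.6% in the weakest.

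With the full lists and a window of 1 kb, HSC-only regions lay at the 3' ends of genes more often than at starts, and shared regions the other way round. For HSC-only regions the share that reached a start was higher under other settings. It was 53.2% with a window of 3 kb, 56.2% of 112 with strand in lists of 16942 peaks, and 42.1% in lists of 33885. These shares include regions that also reached a 3' end, which were not counted apart there. Which side was more frequent with the 3 kb window and in lists of 16942 peaks was therefore not settled. In lists of 33885 peaks most regions with strand reached a 3' end and no start, so 3' ends stayed the more frequent side. Strand was known for 17492 of 21887 protein-coding genes, so that 1671 members could be placed. Of these, 1130 (67.6%) lay within 1 kb of a 3' end and of no start, 466 (27.9%) of a start and no 3' end, and 75 of both. Thus 32.4% reached a start (95% exact binomial interval 30.1 to 34.7%, which covers counting error only), against 91.9% of 7984 shared regions (91.3 to 92.5%) and 73.3% of 150 LSC-only regions (65.5 to 80.2%). Regions found in HSC 1 alone or HSC 2 alone were close to the members, with 33.1% and 34.9%. Regions are not replicates, and no test over libraries can be made on a set that holds peaks of 1 group only.

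The difference in position was also present among regions alike in the weaker of their 2 HSC ranks. These are raw ranks in lists of 115195 peaks in HSC 1 and 234417 in HSC 2, and fold was not matched. Between HSC ranks 55472 and 111940, the middle range of the members, 31.7% of 829 HSC-only regions reached a start, against 67.2% of 433 shared regions. In the same range the median width was 858 bp for HSC-only and 1824 bp for shared regions. A wider region reaches more gene sides, and the part of width in this difference was not tested.

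Gene sides were also compared according to whether an LSC peak lay within 1 kb. Of 8000 starts without one, 321 (4.01%) had an HSC-only region, and of 14008 such 3' ends, 910 (6.5%). With an LSC peak, the shares were 2.01% of 9492 starts and 9.01% of 3484 3' ends. Any region with peaks in both HSC libraries lay at 4.55% of the starts and 7.73% of the 3' ends without an LSC peak. Of the 1080 members for which all nearby gene sides were known 3' ends, 18 (1.67%) lay within 1 kb of a start in the promoter table, and 414 (38.3%) within 5 kb.

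Summits in HSC-only regions lay within 250 bp of the gene side in about equal shares at starts and 3' ends. Among members nearest to a start, 14.5% of HSC 1 summits and 15.9% of HSC 2 summits lay within 250 bp of it, against 36.2% and 28.0% in shared regions. Of these member summits, 47.3% in HSC 1 and 46.4% in HSC 2 lay inside the gene, against 77.4% and 74.5% in shared regions. Among members nearest to a 3' end, 15.3% of HSC 1 summits and 15% of HSC 2 summits lay within 250 bp of it, against 5.51% and 5.86% in shared regions. Of these member summits, 51.9% in HSC 1 and 53.3% in HSC 2 lay inside the gene and the rest beyond it. The 1 kb limit bounds how far a member can lie from a gene side, inside or outside the gene. Just within the limit were the regions of Gsdma (folds 6.39 in HSC 1 and 11.6 in HSC 2) and Mtmr11 (8.6 and 4.72). Both lay inside the gene, 1000 bp from a side of it. Just past the limit, 1002 bp beyond the 3' end, lay those of Vps26b (7.37 and 10.2) and Cnnm2 (7.61 and 5.43).

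**Figure D3:**
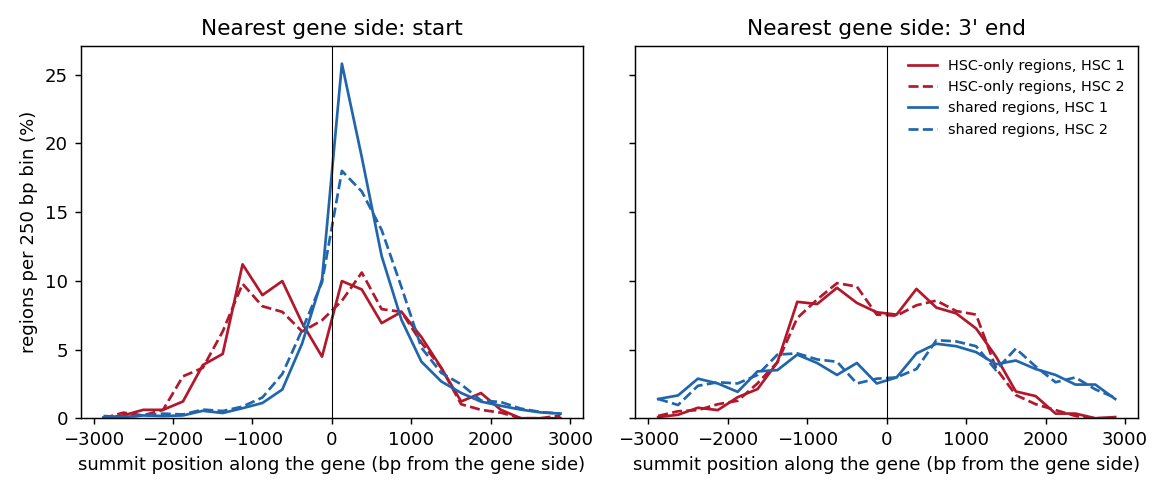
Lines give the percentage of regions whose strongest summit falls in each 250 bp bin along the gene, from the start (left) or 3' end (right) nearest to the region, with positive positions in the direction of transcription. Red is HSC-only and blue is shared regions, solid for HSC 1 and dashed for HSC 2, and regions beyond 3 kb count in the total. Shared regions peak just inside the start, and HSC-only regions lie on both sides of the start.

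A single value could be tested over libraries, the share of gene-end peaks that lay at a 3' end and no start, counted per list without the HSC-only rule. It was 16.8% and 16.4% in LSC 1 and LSC 2 and 30.3% and 36.4% in HSC 1 and HSC 2. The means were 16.6% ± 0.268 (SD, n = 2) in LSCs and 33.4% ± 4.35 (SD, n = 2) in HSCs, a difference of -16.7 percentage points. A two-sided exact permutation test over the 6 assignments of 4 libraries gave p = 0.33, the smallest value this design allows. With the 33885 strongest peaks of each library the shares were 14.7% and 16.4% in LSCs and 16.4% and 15.5% in HSCs, so the groups overlapped, with a difference of -0.363 points (p = 0.67, exact permutation). When peaks had to reach a fold of 20, the difference was -1.24 points (p = 0.67, exact permutation). The share itself and both of these settings were chosen after the data were seen.

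LSC peaks were usually close by. The median gap from an HSC-only region to the nearest LSC peak was 1788 bp, and 1606 of 2081 (77.2%, 95% exact binomial interval 75.3 to 79.0%) had an LSC peak within 5 kb. The interval covers counting error only and takes regions as independent, though neighbouring regions can share an LSC peak. For HSC-only regions away from gene ends the median gap was 2583 bp and the share 68.5%, and from a shared region to the next LSC peak outside it 1149 bp and 74.6%. Without HSC 1 the members' share was 50.2%. In 574 members (27.6%) an LSC peak lay within 1 kb of the same gene side, beside the region and not overlapping it. The 2081 regions touched 2075 genes, and 1587 of these genes (76.5%) had an LSC peak at 1 or both of their ends. Of the 1224 genes with a member at the 3' end, 983 (80.3%) had an LSC peak at their start, against 54.3% of all 17492 genes with strand. The 1224 genes were chosen by their HSC peaks and the 17492 were not. Among starts with a region of both HSC libraries, 8666 had an LSC peak within 1 kb and 364 had none. The part of this choice in the higher share was not tested. Of the 2075 genes touched, 488 had no LSC peak at either end.

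A small set of members stood far from any LSC peak. In 56 regions the gap was over 50 kb, and 35 of the 42 with strand (83.3%) reached a gene start, against 32.4% of all members. They included the region of Lpcat2 and Mmp2. At Retnlg, which encodes a resistin-like protein made by neutrophils, a region of 2539 bp reached both ends of the gene, with folds of 14.2 in HSC 1 and 17.1 in HSC 2 and a gap of 117297 bp. At the start of Dock1, which encodes an activator of the GTPase Rac, folds were 12.8 and 20.5 with a gap of 484943 bp, and at the start of Slc16a14, of the monocarboxylate transporter family, they were 10.8 and 26.7 with a gap of 91523 bp. At the start of Ccnjl the gap was 93462 bp. Uty, encoding a histone demethylase (folds 9.82 in HSC 1 and 12.4 in HSC 2), and Eif2s3y, encoding a translation initiation factor (8.35 and 11.7), were the only members on chromosome Y. That chromosome carried 6 and 12 peaks in LSC 1 and LSC 2 and 47 and 165 in HSC 1 and HSC 2. As shares of each list these were 0.0147% and 0.0354% in the LSC libraries and 0.0408% and 0.0704% in the HSC libraries. The sex of the donors is not in the labels, and its part in these 2 regions was not tested.

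Promoters that began inside HSC-only regions were poor in CpG. The promoter table held 122 coding promoters, of 111 genes, whose start lay in such a region. Their median ratio of observed to expected CpG was 0.303 (quartiles 0.142 and 0.491), against 0.794 (0.626 and 0.93) for 9475 promoters in shared regions and 0.567 for all 21263 coding promoters. A ratio over 0.6 was found in 16.4% of HSC-only promoters, 77.5% of shared promoters and 47.6% of all. Promoters whose start lay in no region of any library had a median of 0.254, near that of the HSC-only ones. GC content differed less, with medians of 55.0%, 61.3% and 56.3% for HSC-only, shared and all promoters. In the middle rank range used above, the median ratio was 0.254 for 54 HSC-only and 0.708 for 255 shared promoters. The rule did not use sequence, but promoters are not replicates and no test was made.

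The share of promoters with a short motif also differed. Both strands of the 300 bp were searched for 7 motifs, and overlaps between motifs were allowed. The TATA box letters TATAAA were present in 18.9% of HSC-only promoters, 6.14% of shared promoters and 12.6% of all, and the GC box letters GGGCGG in 35.2%, 66.6% and 46.2%. In promoters whose start lay in no region, TATAAA was present in 19.6%, GGGCGG in 26.0% and the GATA letters AGATAA in 13.8%. The ETS core AGGAAG was in 42.6%, 32.7% and 34.4%, and CCAAT in 32.8%, 39.4% and 38.2%. In HSC-only, shared and all promoters, AGATAA was in 9.84%, 5.57% and 9.65%, the core of the interferon-stimulated response element in 4.92%, 3.24% and 3.35%, and the C/EBP palindrome TTGCGCAA in 0.0%, 0.317% and 0.221%. A match describes letters only and shows no binding.

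**Figure D4:**
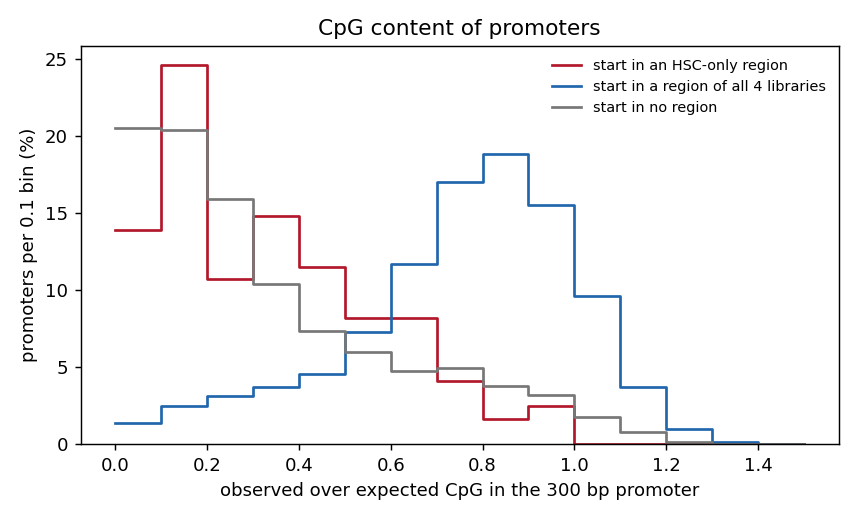
Steps give the percentage of coding promoters in each 0.1 bin of the ratio of observed to expected CpG over 300 bp, for starts inside an HSC-only region (red, 122), inside a shared region (blue, 9475) and in no region (grey, 9491). HSC-only promoters lie mostly below 0.6, with a median of 0.303, and shared promoters mostly above it, with a median of 0.794.

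Genes with an HSC-only region made up 9.48% of the 21887 protein-coding genes, and 17.7% of the 11731 genes with any gene-end region of both HSC libraries. Of 19 gene lists, the interferon response and the neutrophil list had the highest shares of all their genes. The order was different among genes with a region of both HSC libraries, where the stromal (66.7% of 6), megakaryocyte (62.5% of 8), B cell and neuronal (60.0% of 10 and of 5) and T and NK cell lists (57.1% of 7) lay above the interferon (47.4% of 19) and neutrophil lists (36.7% of 30). The lists were chosen with earlier results of these data known, so their shares are no independent evidence, and no list was tested. Shares of all genes are read beside 9.48%, and shares of genes with a region of both HSC libraries beside 17.7%. The number of regions per gene was 1 at 1826 genes, 2 at 229, 3 at 19 and 4 at Ly6a.

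Of 31 neutrophil genes, 11 (35.5%) had an HSC-only region, or 36.7% of the 30 with a region of both HSC libraries. Ltf and Retnlg led. Cxcr1, a receptor for neutrophil-attracting chemokines, had 2 regions, at its 3' end with folds of 11.8 in HSC 1 and 16.1 in HSC 2 and near its start with 10.8 and 7.32. Il1b, encoding the cytokine interleukin 1 beta, had 3, with folds of 9.33 and 13.3 at the first in order. Ly6g, whose product is the standard surface marker of mouse neutrophils, had a region covering its start (13.0 and 12) and a weaker region at its 3' end (3.93 and 4.96). Retnlg, Cxcr1, Il1b and Ly6g had no LSC peak within 1 kb of either end. The nearest LSC peaks lay 1541 to 3436 bp from the Il1b regions and at least 7821 bp from those of Retnlg, Cxcr1 and Ly6g. The other 7, Ltf, Mmp25, Itgam, Cxcr2, Cd177, Pglyrp1 and Il1r2, had an LSC peak within 1 kb of an end of the gene. In 10 of the 11 genes a region lay at the 3' end and in 5 at the start. The median fold over the list's 17 regions was 9.33 in HSC 1 and 9.68 in HSC 2, against 7.37 and 8.74 over all members. Neutrophils are not part of the HSC gate, and what share of the signal came from other cells was not tested.

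Of 20 interferon response genes in the coding annotation, 9 (45.0%) had an HSC-only region. Rtp4, which encodes an interferon-induced receptor transporter, was the only 1 of them with no LSC peak at either end, and its region (8.35 in HSC 1 and 16.9 in HSC 2) lay 234484 bp from the nearest. Oas3, encoding a sensor of double-stranded RNA, had a region 752 bp from its 3' end with folds of 13.0 and 19.4. Oasl2, of the same family, had 1 region at its start and 1 at its 3' end. Bst2, Stat2, Irf9 and Ifit3 had theirs at the 3' end, and Rsad2 and Ifit1 near the start, 538 and 516 bp from an LSC peak. The Mx1 and Mx2 entries are not coding genes in this annotation and were left out.

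Genes of the HSC programme had a region in 7 of 37 cases (18.9%), or 41.2% of the 17 with a region of both HSC libraries. Ly6a encodes Sca-1, by which HSCs were sorted as positive and LSCs as negative. It had 4 HSC-only regions, with folds of 9.33 and 11.9 in HSC 1 and HSC 2 at the first, 8.35 and 12.2 at the second, 6.88 and 6.37 at the third and 9.09 and 3.31 at the last. Together with its neighbour Ly6i it held 6 regions between 74978916 and 74998646 on chromosome 15, and none of the 6 had an LSC peak in its window. Lmo2, encoding a bridging subunit of blood transcription factor complexes, had a region 987 bp from an end (6.63 and 13.5), and Hoxa10, a homeobox gene, 1 at 977 bp from its 3' end (9.09 and 7.44). Thy1 had a weak region (4.91 and 4.49). Kit, Erg and Ctnnal1 had regions at the 3' end, and an LSC peak lay within 1 kb of an end of each. Of 30 MLL fusion targets, 3 (10.0%) had a region, or 18.8% of the 16 with a region of both HSC libraries. They were Lmo2, Hoxa10 and Nkx2-3 (6.14 and 12.6), and none of these 3 genes had an LSC gene-end peak. The nearest LSC peaks lay 4819, 3297 and 2343 bp from their regions, in the same order. Both shares of this list were close to those of all genes, 9.48% and 17.7%.

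Ferroptosis is cell death by lipid peroxidation. Of 34 genes that defend against it, 8 (23.5%) had an HSC-only region, 5 of them at the 3' end, and these were 28.6% of the 28 with a region of both HSC libraries. Nfe2l2, the regulator of antioxidant genes also called Nrf2, had 1 at 259 bp from its 3' end with folds of 9.33 in HSC 1 and 13.2 in HSC 2. Gclm, the modifier subunit of glutamate-cysteine ligase, and Gch1, which starts tetrahydrobiopterin synthesis, had regions near the start (9.09 and 13.5, and 8.84 and 16.9), 342 and 77 bp from an LSC peak. Slc3a2, the partner chain of the cystine transporter, had 1 across its 3' end (14.2 and 8.5). Dhodh, Coq2 and Cbs made up the rest with Txnrd1, a thioredoxin reductase, which was the only defence gene of the 8 with no LSC gene-end peak (4.67 and 10.6). Of 31 driver genes, 6 (19.4%) had a region, led by Zeb1, a repressor of epithelial genes (11.8 and 15.1), which had no LSC gene-end peak, and Sat1, which encodes a polyamine acetyltransferase (9.09 and 17.6), 13 bp from an LSC peak. The others were Becn1, Trp53, Lpcat3 and Ncoa4, and the 6 were 26.1% of the 23 with a region of both HSC libraries.

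Lineage and housekeeping lists varied in their share of genes with an HSC-only region, and differences between the lists were not tested. Beside 9.48% of all genes, the share was 14.3% for T and NK cell, 13.6% for neuronal and 13.0% for monocyte and macrophage genes. The stromal, B cell and megakaryocyte shares lay farther above it. The erythroid, endothelial, and mast cell and eosinophil shares lay below it. HSC-only regions were found at 6 of 24 B cell genes, among them Vpreb3, Fcer2a and Tnfrsf13c, at 5 of 20 megakaryocyte genes, led by Itga2b, Gp1ba, Plek and Gp1bb and all at the 3' end, and at 4 of 28 T and NK cell genes. Cd5, a T cell surface receptor, had folds of 10.1 and 15.2 in HSC 1 and HSC 2. Lck, a T cell kinase, had 3 regions, at 37, 34 and 116 bp from an LSC peak. Members were found at 3 of 23 monocyte and macrophage genes, where Cd33 had 2 at its start (12.5 and 19.0, and 22.8 and 9.56). They were also found at 2 of 25 erythroid genes, Ermap and Rhd, and at none of 20 mast cell and eosinophil genes. Stromal genes had 4 of 22, neuronal genes 3 of 22 and endothelial genes 1 of 22, Plvap. All 54 ribosomal protein genes had a region of both HSC libraries, and 5 (9.26%) had an HSC-only region, and each of the 5 had an LSC peak within 1 kb of an end. Cytokine receptors had 8 of 36, such as Il4ra, Csf1r, Csf2rb and Kit, cell surface and adhesion genes 7 of 30, such as Prom1, Cd27 and Selplg, and lipid genes 5 of 25. Among genes with a region of both HSC libraries the shares were 27.6% for cytokine receptors, 28.0% for surface genes and 25% for lipid genes, and 23.1% for monocyte and macrophage, 40.0% of 5 for erythroid and 20.0% of 5 for endothelial genes. Of the lipid genes, Plin5, a lipid droplet protein gene, had a region at each end (14.5 and 15.2 at the start, 8.11 and 13.2 at the 3' end).

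**Figure D5:**
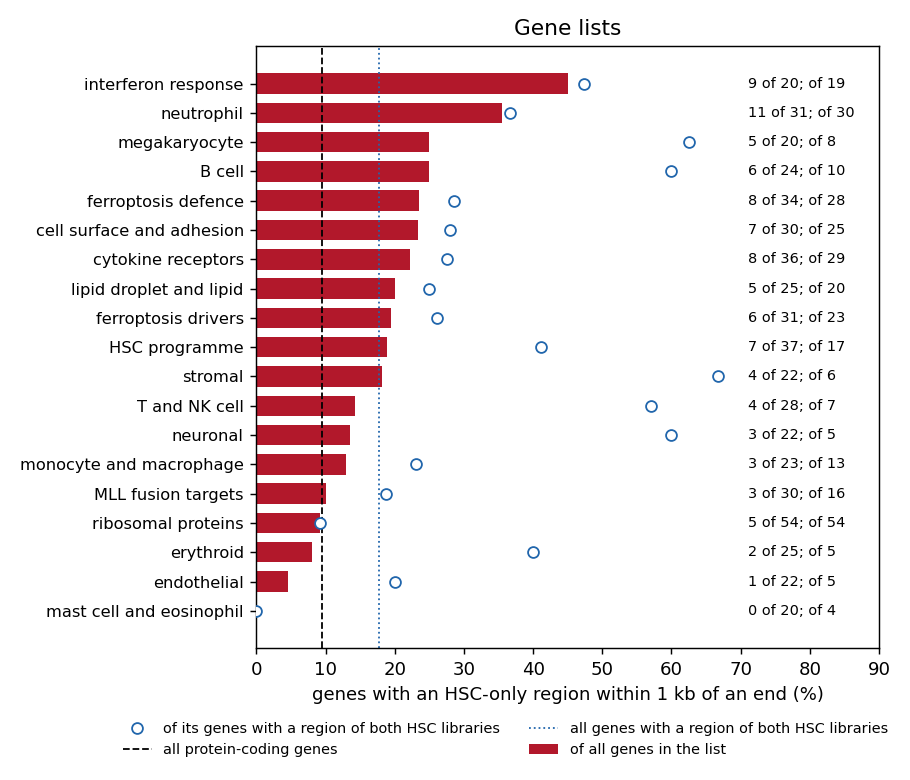
Bars give the percentage of the genes in each of 19 lists with an HSC-only region within 1 kb of an end, and circles the same as a percentage of the list's genes with a region of both HSC libraries, with counts and both denominators at the right and lines at 9.48% (dashed) and 17.7% (dotted) for all genes. The interferon response (9 of 20) and neutrophil genes (11 of 31) have the longest bars, while the circle of the stromal list (66.7%) lies farthest right.

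Gene families grouped by symbol ranged widely. HSC-only regions lay at 6 of 1110 olfactory receptor genes (0.541%), at 0 of 353 vomeronasal receptor genes, 0 of 109 keratin genes and 0 of 69 protocadherin genes. Near the background of 9.48% were 36 of 397 Zfp zinc finger genes (9.07%), 39 of 375 solute carriers (10.4%) and 3 of 30 Mediator genes (10.0%). Mitochondrial ribosomal genes had 11 of 78 (14.1%) and Tmem genes 33 of 238 (13.9%), and proteasome genes 3 of 51 (5.88%). Hox genes had 3 of 39, namely Hoxa10, Hoxb6 and Hoxd9. Among genes with a region of both HSC libraries the order was different, with 6 of 7 olfactory receptors (85.7%), 3 of 4 Hox genes (75%), 20.8% of Tmem genes, 19.1% of solute carriers, 14.3% of mitochondrial ribosomal genes, 12.1% of Zfp genes, 10.7% of Mediator genes and 6.52% of proteasome genes, against 17.7% overall.

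By chromosome, the HSC-only share of gene-end regions ran from 3.57% on X (20 of 560) and 4.46% on chromosome 13 to 10.1% on chromosome 17 and 10.6% on chromosome 11 (264 of 2485), leaving out Y with 7 gene-end regions. Genes with a member at the 3' end had a median length of 13938 bp, and those with a member at the start 15027 bp, against 20568 bp for genes with a shared region at the start and 17169 bp for all coding genes. Members were also narrower than shared regions, with a median width of 866 bp against 3888 bp, and a wider region overlaps more annotated transcripts. Long non-coding RNA genes overlapped 7.16% of members and 14.9% of shared regions, and transfer RNA genes 0 of 2081 and 57 of 9499, and the part of width in this was not tested. The annotation used gives no exons, so exon, intron and untranslated parts were not told apart here.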

How the data were processed

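CUT&Tag with a Sub1 antibody was measured in 2 LSC and 2 HSC libraries, with 1 peak list per library. Per the submitters' processing notes, FastQC 0.11.5, Bowtie2 2.2.9, MACS2 and ChIPseeker were used with mm10. Duplicate handling and controls are not given in the sources used here, and peak names carry the prefix H4-Cut, so the target rests on the labels. In the deposited lists each peak has a fold, which is the authors' ratio over background, with -log10 p, -log10 q, a deposited score of 10 times -log10 q, and the summit offset, which the authors give in bases from the peak start.

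Peaks on chromosomes 1 to 19, X and Y were merged at 1 bp overlap. Gene ends are the outermost coordinates of 21887 protein-coding genes in RefSeq GRCm38.p6, with strand from the RefSeq promoter table, and gaps are to the nearest LSC peak. Ranks follow -log10 p within a list. Pileups worked out from the fold and the p-value were whole (within 0.05) for 100% of 1000 sampled peaks in each list, at 1 constant background per list. Since read totals were not used, this background is the only measure of depth.

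The members and lists were chosen with earlier results of these data known. Named are the first 20 regions by the weaker HSC rank, up to 4 genes per list or family by that order, regions at the 1 kb limit and the weakest members. Genes named beyond this, the members far from LSC peaks and the Ly6a and Ly6i group were chosen after their values were seen. Regions and genes are not replicates and got no test. The 1 value per library was tested with a two-sided exact permutation test. Steps were tested on simulated peak lists. The work used pandas 2.3.3, NumPy 2.4.6 and SciPy 1.17.1 under Python 3.11.15, and figures matplotlib 3.10.9.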

Additional observations from a re-analysis of the deposited data

How the results depend on the processing

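The number of HSC-only gene-end regions moved more under the list lengths tried than under the thresholds tried, though these cuts differ in severity. With the 33885 strongest peaks of each library it was 213, of which 165 were the same regions, with 42.1% reaching a start. With 16942 peaks it was 134, of which 25 had the same coordinates as a member, with 56.2% reaching a start and 61.2% within 5 kb of an LSC peak. A -log10 q of at least 10 left 1788 regions, and a fold of at least 5, chosen after the data were seen, left 1795. A window of 3 kb gave 5506 regions, 53.2% at a start and 82.3% near an LSC peak, and a window of 500 bp gave 1341. With the summit in place of the region the number was 1226 (75.3% near an LSC peak). With HSC peaks overlapping by 50% of both it was 665 (34.8% at a start). With no LSC peak allowed within 1 kb of the region it was 1332 (29.2% at a start, 64.3% near an LSC peak). The causes were not tested, apart from the shorter lists and other windows, which change the number by their construction.

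Leaving out each library in turn gave 2599 to 9830 regions, the highest without HSC 1 and 5418 without HSC 2. The share at a start was then 33.3 to 35.2% and the share near an LSC peak 50.2 to 74.5%, the lowest without HSC 1. The difference in 3' end share, LSC minus HSC, was -0.363 points in equal-sized lists and -13.7 to -19.8 points without single libraries. With a replicate block, labels swapped only within equal replicate numbers, that difference was -16.7 points (exact permutation p = 0.5, the smallest that 4 assignments allow), and the labels do not tie equal numbers to a shared mouse or day. The counts of regions come from no test and have no paired form. The background of 3.07 to 7.47 reads per position limits what a weak peak can show: with peaks near the lowest fold called, a missing LSC peak is not evidence of absent Sub1.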
